A study of Mus musculus with 32 samples.

Results

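Meninges of light-treated 5xFAD mice were compared with meninges of WT mice by RNA-seq, over 13857 of the 22337 genes listed and 7 of the 32 samples of the series. A gene was included when its FPKM, a fragment count scaled to transcript length and library size, reached 1 in 3 or more of the 7 samples. The light-treated group (5xFAD+L) held 3 mice and the WT group 4 mice, each sample being the meninges of 1 male mouse 6 months of age. 5xFAD mice carry mutated human transgenes, among them APP, under regulatory sequence of the neuronal gene Thy1 and deposit amyloid in the brain. All were on a C57BL/6J background, and littermates without the transgenes served as WT. Light-treated mice received near-infrared light through the shaved scalp under isoflurane for 10 min, 3 times a week for 4 weeks. Control mice of the study had the same anaesthesia and shaving under room lighting, though this is not stated for each sequenced group. The 3 untreated 5xFAD mice (5xFAD) of the same tissue entered the fit, and their values are given beside the others. No light-treated WT meninges were analysed here, so genotype and light cannot be told apart in this comparison. In whole tissue, fewer cells of a type and less RNA per cell cannot be told apart either.

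The meninges are the membranes around the brain, made of fibroblasts and barrier cells with blood and lymphatic vessels, resident macrophages and lymphocytes. Glucocorticoids, the hormones of the stress axis, bind a nuclear receptor that switches on a set of genes in most cell types, among them a feedback inhibitor of the receptor itself (Fkbp5). Type I interferons act through a receptor at the cell surface and switch on antiviral genes, and macrophages carry receptors for chemokines, complement and lipids.

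Total estimated counts per sample ranged from 6601143 to 14708202 over the 7 samples, and 17427 to 19769 genes had a count above 0. All 16 border-associated macrophage genes and all 20 genes of meningeal fibroblasts and the arachnoid barrier were tested. So were all 12 choroid plexus genes and 11 pineal genes. All 8 astrocyte and all 14 neutrophil genes were tested as well, so the filter alone does not single out the tissue. Ttr, the transthyretin gene of the choroid plexus, had the most counts in each of the 7 libraries, and the summed FPKM of the choroid plexus list was 31752 to 55308 in light-treated and 17445 to 44619 in WT mice. Mouse Thy1 and App did not separate the genotypes. For Thy1 the mean FPKM ± SD was 14.8 ± 1.06 in the 3 light-treated and 15.6 ± 4.4 in the 4 WT mice, and for App it was 126 ± 14.8 and 114 ± 12.2. The human transgenes have no row of their own. WT replicate 2 stood apart from the other WT mice. On the first principal component, with 26.7% of the variance, it lay at −29.3, near the light-treated mice at −46.2 to −36.4, whereas the other WT mice lay at 7.54 to 49.8. On the second, with 20.1%, WT replicate 1 lay at −59.6 and the other WT mice at −10.3 to 4.68. Some results are given with and without WT replicate 2. Because that mouse lay near the light-treated mice, leaving it out widens the difference between the groups. More calls without it show dependence on this mouse and are no support for a gene.

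Against WT, 2 genes fell and 0 rose in light-treated 5xFAD meninges, 0.0144% and 0.0% of the genes tested (edgeR quasi-likelihood test, Benjamini-Hochberg adjusted p under 0.05 with a 2-fold or larger change). Both, Zbtb16 and Fkbp5, are genes that glucocorticoids induce. An unadjusted p below 0.05 was found for 1128 genes in the higher and 1174 in the lower direction, 8.14% and 8.47% of those tested, and the median log2 fold change over all tested genes was 0.01. All 3 light-treated mice lay above all 4 WT mice in FPKM for 983 genes (7.09%) and below them for 745 (5.38%). DESeq2 on the same counts called 102 genes higher and 270 lower, 0.736% and 1.95%. Without WT replicate 2, edgeR called 39 genes higher and 120 lower, 0.281% and 0.866%, and both genes of the full comparison were among the 120. Mt1, Klf9, Nfkbia, Cdkn1a, Fosl2, Gclc and Camk2a were also among the 120, and Angpt2 among the 39. The values given for them below include this mouse.

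**Figure D1:**
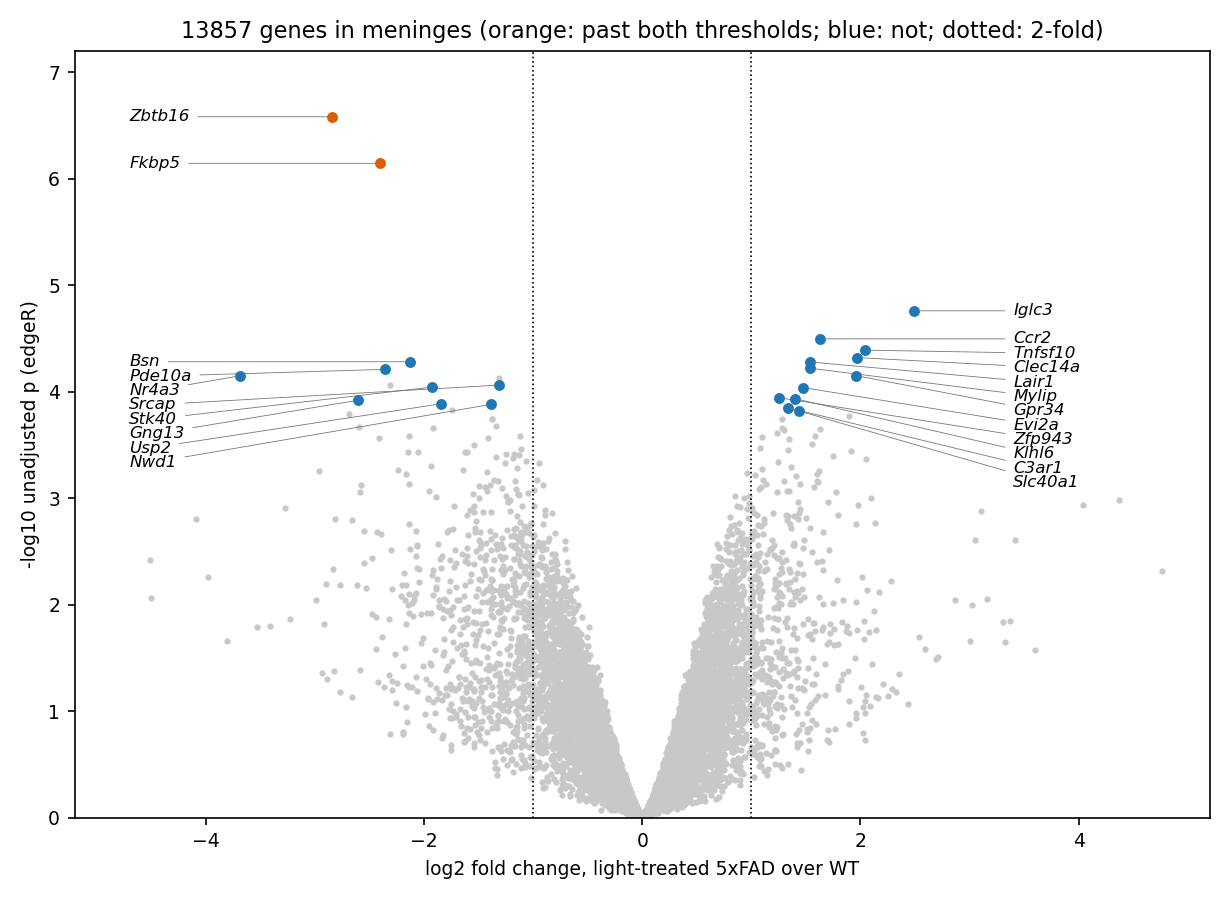
Log2 fold change of light-treated 5xFAD over WT meninges (x axis) against −log10 of the unadjusted edgeR p (y axis) for 13857 genes. Zbtb16 and Fkbp5 (orange) were past both thresholds, and the other labelled genes, which were among those with the smallest p in each direction, were not.

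Genes in the higher direction were poorer in G and C. The median GC content of the transcript was 43.7% for the higher and 54.3% for the lower genes with an unadjusted p below 0.05, and 49.7% for all tested genes. Across 13835 genes of the same libraries, which are not independent replicates, log2 fold change and GC content had a Spearman rho of −0.36. The relation was uneven between libraries. For a gene's deviation from its mean over the 10 samples, rho was −0.12, 0.06 and −0.50 in light-treated replicates 1, 2 and 4. In WT replicates 1 to 4 it was 0.19, 0.33, 0.11 and 0.23. With GC content and transcript length modelled in each library, 3 genes passed, Zbtb16 and Fkbp5 in the lower and Iglc3 in the higher direction. The part of GC content in the other differences was not tested one by one.

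Fkbp5 (ENSMUSG00000024222, chromosome 17, 28399094 to 28517527, minus strand, GRCm38) encodes a co-chaperone of Hsp90 that holds the glucocorticoid receptor in a state of low affinity. Its FPKM was 5.13, 3.99 and 3.52 in the light-treated mice and 24.04, 17.8, 23.8 and 26.1 in the WT mice. The highest light-treated mouse was well below the lowest WT mouse. Fkbp5 fell by 2.40 on the log2 scale (standard error 0.27, edgeR adjusted p = 0.00498). The means ± SD were 4.21 ± 0.828 over 3 light-treated and 22.9 ± 3.59 over 4 WT mice. In the untreated 5xFAD mice it was 24.5, 34.2 and 18.5, within or above the WT range.

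Zbtb16 (ENSMUSG00000066687, chromosome 9, 48654297 to 48836222, minus strand) encodes the zinc finger transcription factor PLZF. Its FPKM was 2.46, 3.51 and 1.36 in the light-treated mice and 19.5, 11.8, 14.5 and 15.9 in the WT mice, again without overlap. It fell by 2.84 on the log2 scale (standard error 0.30, edgeR adjusted p = 0.00364). The untreated 5xFAD mice had 12.2, 14.2 and 9.51, of which the lowest lay below the WT range. The call on Fkbp5 was lost without light-treated replicate 2 or 4, with Fkbp5 log2 fold changes of −2.29 and −2.33, while Zbtb16 passed with any 1 of the 7 mice left out. From the same fit, untreated 5xFAD against WT gave 0 calls (0.0% of tested genes, 550 at an unadjusted edgeR p below 0.05, 0 calls by DESeq2). Light-treated against untreated 5xFAD gave 2 (0.0144%), again Fkbp5 and Zbtb16. These comparisons share mice with the main one.

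Promoters are shown for Fkbp5, which passed, and for Mt1, a listed gene whose promoter holds the core of the glucocorticoid receptor's palindrome, ACANNNTGT, a motif chosen after the values were seen. The sequences are the 250 bases before the start, on the gene's strand, from RefSeq on GRCm38.p6, with matches in capitals. The start of the RefSeq entry used for Fkbp5 lies inside the interval given above for the gene, not at its outer end.
Fkbp5, chr17:28486150-28486399, minus strand: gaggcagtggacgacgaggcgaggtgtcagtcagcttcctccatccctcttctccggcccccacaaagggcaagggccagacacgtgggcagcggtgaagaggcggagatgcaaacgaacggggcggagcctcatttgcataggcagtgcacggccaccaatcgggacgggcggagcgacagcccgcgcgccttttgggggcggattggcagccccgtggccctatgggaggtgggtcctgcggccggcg
Mt1, chr8:94178839-94179088, plus strand: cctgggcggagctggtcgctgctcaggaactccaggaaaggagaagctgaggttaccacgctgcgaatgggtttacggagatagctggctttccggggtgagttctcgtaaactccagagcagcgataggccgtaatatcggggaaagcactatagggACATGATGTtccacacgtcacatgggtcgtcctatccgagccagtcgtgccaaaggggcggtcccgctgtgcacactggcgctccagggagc
The motif reads the same on both strands. In windows of 300 bases, 250 before and 50 after the start, it was present for 2 of the 13 listed genes with a window and for 7.9% of 27025 genes in all. The Fkbp5 window held none, which says only that these letters do not occur there.

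Of the other 12 genes on the list of 14 glucocorticoid-response genes none passed the edgeR thresholds, but most had values below WT. Over the list, the log2 fold change was below 0 for 13, an unadjusted p below 0.05 was found for 10 in the lower and 0 in the higher direction, and 7 had no overlap between the groups, all lower (8.47% and 5.38% of all tested genes). The median log2 fold change was −1.59, against 0.01 for all tested genes. All values over the list include Fkbp5 and Zbtb16, and the list was chosen with earlier results of these data known. DESeq2 called 8 of the 14 lower, and edgeR 7 without WT replicate 2 (1.95% and 0.866% of all tested genes). The median of the list per mouse, relative to the WT mean of each gene, was −1.66 to −1.19 in the light-treated and −0.76 to 0.43 in the WT mice, where the lowest was replicate 2.

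Mt1 and Mt2 encode metallothioneins, which bind zinc and copper. Mt2 had an FPKM of 130.1, 141 and 129 in light-treated and 935, 208, 417 and 949.6 in WT mice. The groups did not overlap, and the WT values spread widely with replicate 2 lowest. The log2 fold change was −2.24 (standard error 0.50, edgeR adjusted p = 0.105, and 0.0192 without WT replicate 2). Mt1 had 571, 554 and 600.2 against 2221, 834, 1466 and 2647, a log2 fold change of −1.64 (edgeR adjusted p = 0.105).

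Klf9, a transcription factor gene, had an FPKM of 24.4, 17.1 and 19.5 in light-treated and 44.1, 29.2, 77 and 87.3 in WT mice. Nfkbia, the gene of the NF-κB inhibitor IκBα, had 94.3, 72.8 and 60.01 against 222, 121, 253 and 264. Ddit4, an inhibitor of the mTOR pathway, had 21.3, 22.9 and 9.52 against 84.2, 30.1, 51.4 and 68.7. None of the 3 genes overlapped between the groups, with log2 fold changes of −1.53, −1.49 and −1.72 and edgeR adjusted p values of 0.138, 0.113 and 0.141.

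Per1, a clock gene, Errfi1, an inhibitor of the EGF receptor, and Cdkn1a, which encodes the cell cycle inhibitor p21, had log2 fold changes of −2.13, −1.82 and −1.47, but WT replicate 2 lay below a light-treated mouse in each. Per1 had 8.87, 14.6 and 3.2 against 41.7, 13.3, 38.6 and 49.7. Tsc22d3, Sgk1 and Dusp1, also classical targets, had log2 fold changes of −0.66, −0.51 and −0.26 with unadjusted edgeR p values of 0.0657, 0.107 and 0.573. Pdk4, which encodes a kinase that restrains pyruvate dehydrogenase, alone had a log2 fold change above 0, 0.70 (edgeR adjusted p = 0.481).

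**Figure D2:**
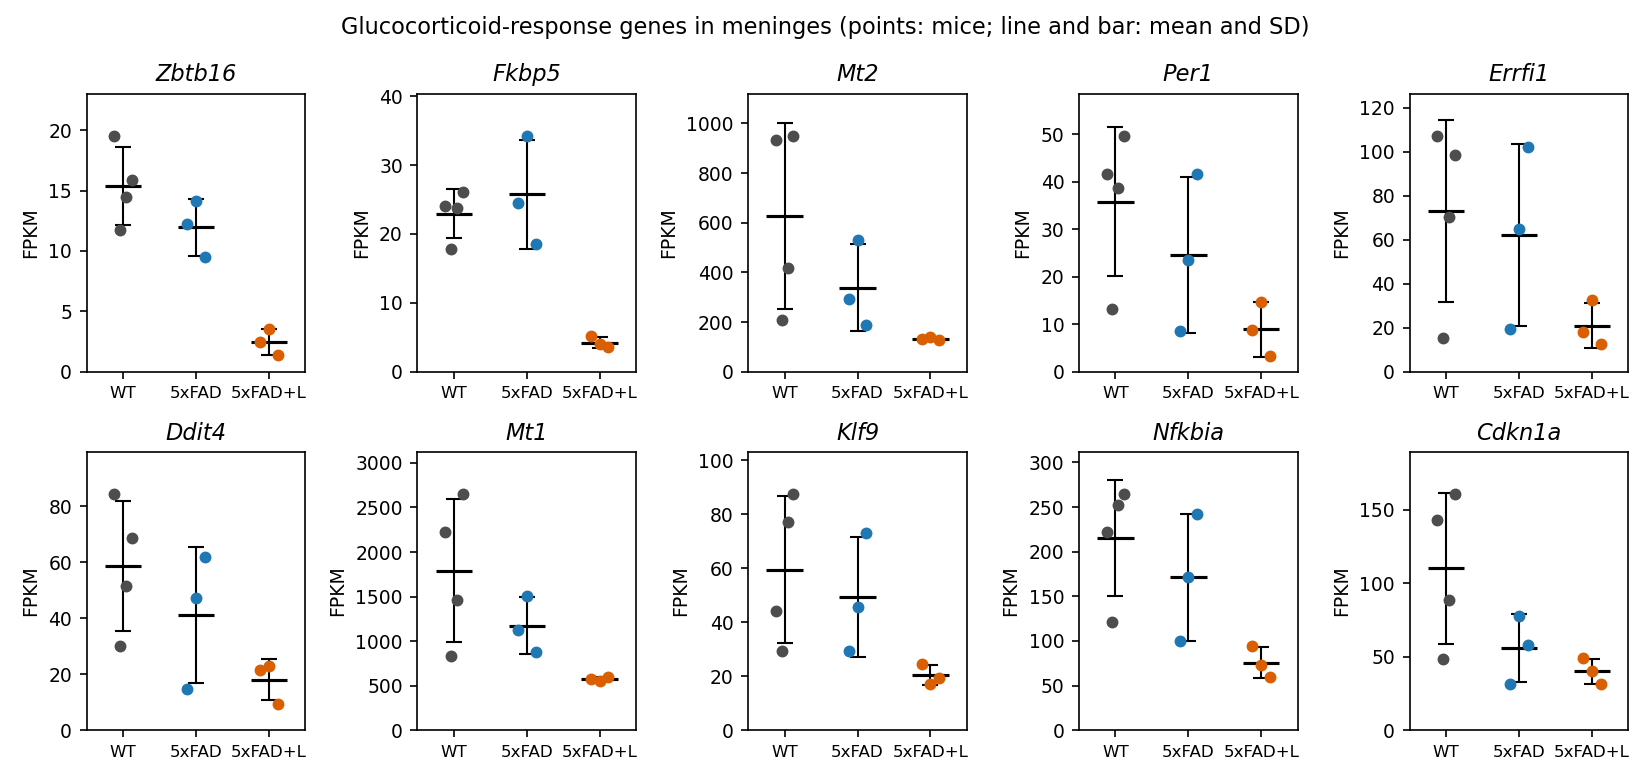
FPKM (y axis) of the 10 glucocorticoid-response genes with the lowest log2 fold change in WT, untreated 5xFAD and light-treated 5xFAD meninges, with 1 point per mouse, the mean as a line and the SD as a bar. Light-treated mice lie below all WT mice for Zbtb16, Fkbp5, Mt2, Ddit4, Mt1, Klf9 and Nfkbia, and WT replicate 2 is the lowest WT mouse in all 10 panels.

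Immediate early genes encode transcription factors that cells switch on soon after a stimulus. Of 17 tested, 0 passed, 6 had an unadjusted p below 0.05 in the lower and 1 in the higher direction (8.47% and 8.14% of all tested genes), and the median log2 fold change was −0.60. Nr4a3, an orphan nuclear receptor gene, had an FPKM of 0.89, 1.29 and 0.39 in light-treated and 10.6, 2.59, 8.67 and 22.01 in WT mice. Its log2 fold change of −3.69 (standard error 0.65, edgeR adjusted p = 0.0747, and 0.00867 without WT replicate 2) was the lowest of the list. Fosl2 and Jund, of the AP-1 family, followed at −1.91 and −1.59. Fos, another AP-1 gene, lay the other way, at 56.2, 89.7 and 36.9 against 32.5, 34.5, 32.7 and 43.8 (log2 fold change 0.73, edgeR adjusted p = 0.222). The per-mouse median of WT replicate 2, −1.04, lay within the range of the light-treated mice, −1.29 to −0.08.

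Of 19 circadian clock genes 0 passed, 3 had an unadjusted p below 0.05, all lower (8.47% of all tested genes), and the median was −0.14. Besides Per1 these were Ciart, a repressor within the clock, and Nfil3, a transcription factor gene. Ciart had 5.75, 3.19 and 2.37 against 14.4, 8.34, 13.7 and 16.96, and Nfil3 9.2, 17.5 and 7.43 against 45.4, 17.8, 23.7 and 33.8. Neither overlapped between the groups, and the log2 fold changes were −2.13 and −1.43. The time of day of dissection is not given in the sources used here.

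Heat-shock and chaperone genes had a median of −0.37, with 4 of 15 at an unadjusted p below 0.05, all lower, and 4 without overlap (8.47% and 5.38% of all tested genes). Bag3, a co-chaperone of Hsp70, had 21.4, 24.8 and 9.87 against 51.4, 29.9, 28.5 and 51.3 (log2 fold change −1.13, edgeR adjusted p = 0.147). Hsp90ab1, the constitutive Hsp90 gene, had 599.9, 611 and 545 against 817, 911, 1041 and 888 (log2 fold change −0.63, edgeR adjusted p = 0.218). The 18 antioxidant genes had a median of −0.08, or −0.25 without light-treated replicate 1. Their lowest member was Gclc, which encodes the rate-limiting enzyme of glutathione synthesis, at 5.8, 3.29 and 5.08 against 12.98, 8.49, 18.4 and 33.04 (log2 fold change −1.93, edgeR adjusted p = 0.105).

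The other 10 genes in the lower direction with the smallest p had edgeR adjusted p values of 0.0747 to 0.0828 and did not pass, although in each of them every light-treated mouse was below every WT mouse. Besides Nr4a3 they included Bsn, a scaffold gene of the presynaptic active zone (log2 fold change −2.12), Pde10a, a phosphodiesterase gene (−2.36), Gng13, a G protein gamma subunit gene (−2.61), Srcap, an ATPase gene of chromatin remodelling (−1.31), Stk40 (−1.93), Usp2, a deubiquitinase gene (−1.84), and Nwd1 (−1.38). Gng13 had the highest FPKM of them, 48.9, 134 and 35.02 against 444, 539, 221 and 471, and 94.6, 140.0 and 231 in the untreated 5xFAD mice. Without WT replicate 2 all 10 passed, with edgeR adjusted p values of 0.00867 to 0.0437. As that mouse lay near the light-treated mice, this is no further support for them.

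Genes of neurons and glia had mostly lower values. Of 15 neuronal genes 14 had a log2 fold change below 0, 4 had an unadjusted p below 0.05 and 2 had no overlap, all lower (8.47% and 5.38% of all tested genes), and the median was −0.94. Camk2a, the gene of a postsynaptic kinase, had an FPKM of 3.06, 7.25 and 6.2 in light-treated and 47.03, 11.1, 22.7 and 11.2 in WT mice (log2 fold change −2.16, edgeR adjusted p = 0.106). Snap25, the most abundant neuronal member, had 97.7, 327 and 195 against 319, 139, 196 and 143, which overlap widely. The per-mouse medians of the neuronal list overlapped too. They were −1.60, −0.05 and −0.84 in light-treated and 1.16, −1.03, 0.30 and −0.26 in WT mice, with WT replicate 1 highest. Of 9 oligodendrocyte genes 3 had an unadjusted p below 0.05, all lower (8.47% of all tested genes), with a median of −1.10. That median was −0.44 without WT replicate 1 and −0.28 over the genes with a mean FPKM of at least 5. Sox10, a transcription factor gene of myelinating glia, had 0.58, 0.52 and 1.74 against 3.93, 5.46, 1.81 and 6.19. Astrocyte genes had a median of −0.32. The summed FPKM of the neuronal list was 179 to 539 in light-treated and 249.7 to 724 in WT mice, and none of its genes was at 0 in all 7 libraries. The part of adhering brain tissue in these values was not tested.

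**Figure D3:**
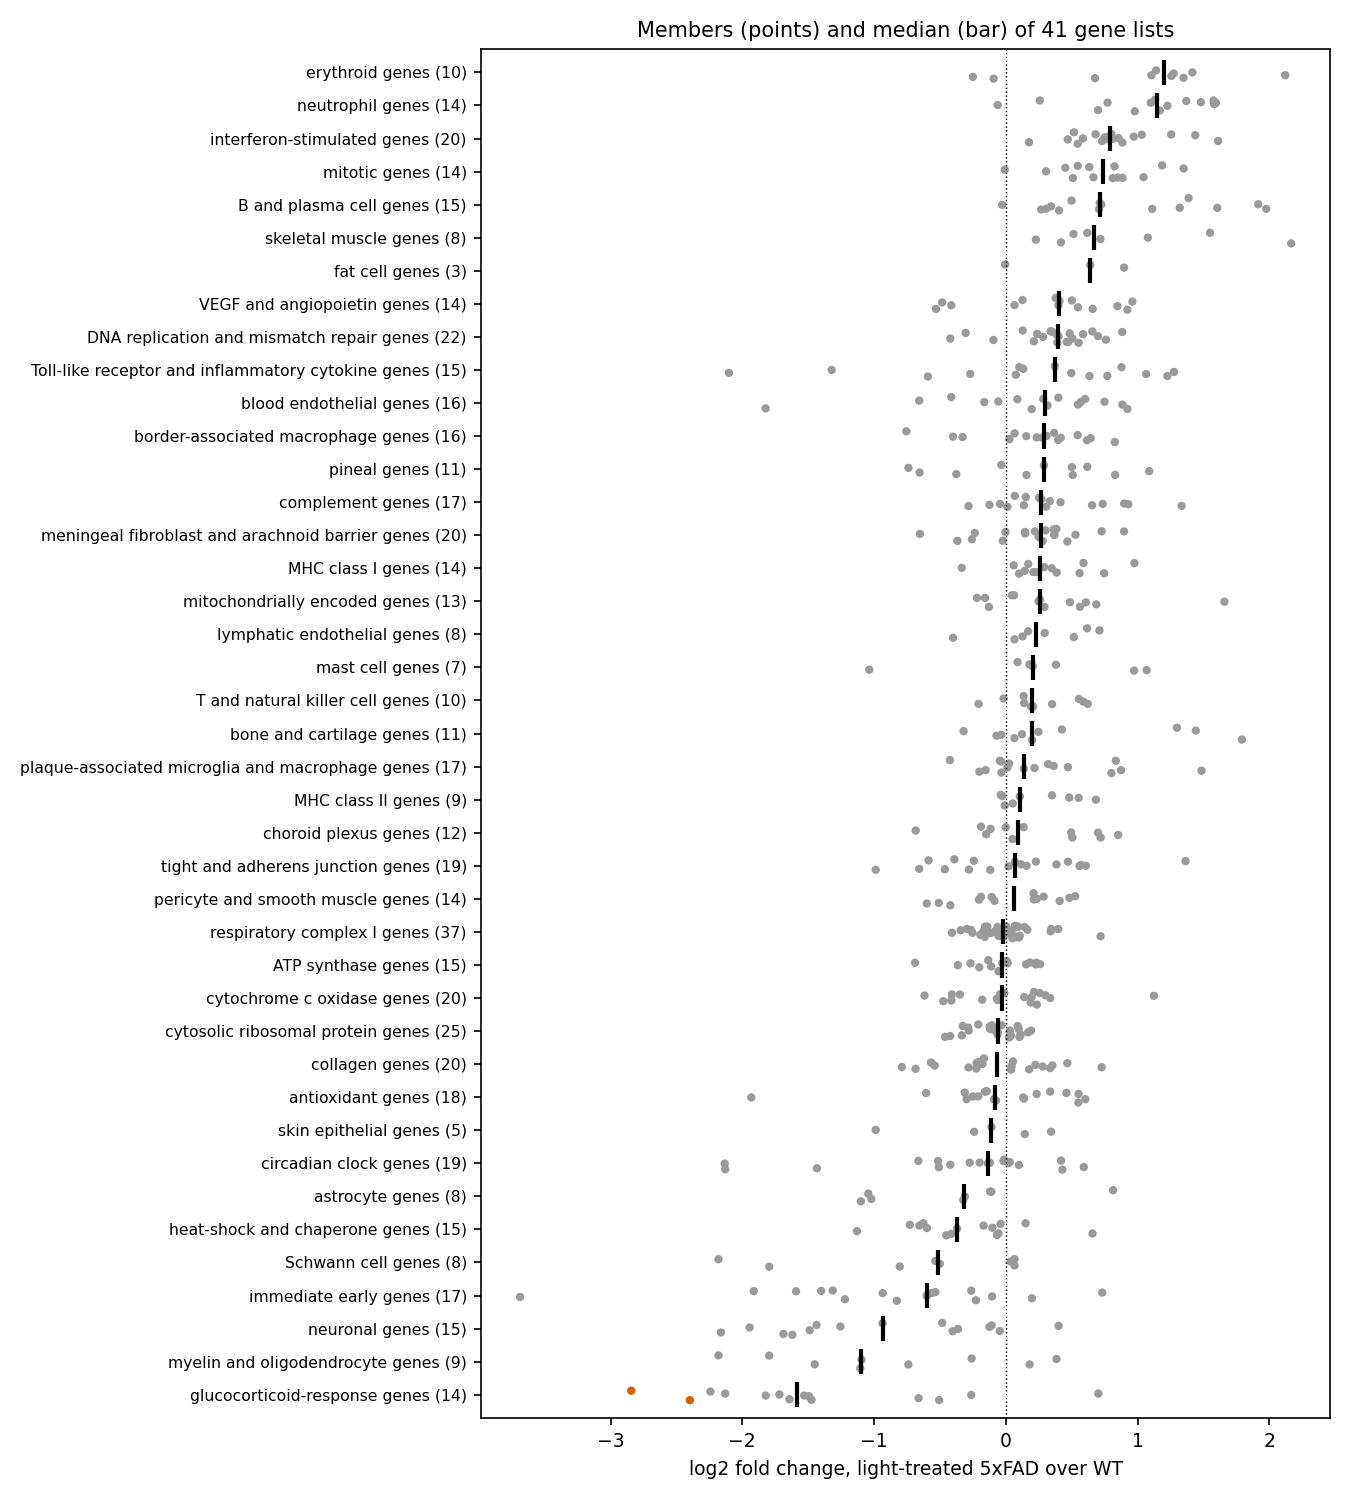
Log2 fold change of light-treated 5xFAD over WT meninges (x axis) for the tested members (points) of 41 gene lists (rows), with the median of each list as a bar. The members past both thresholds (orange) are the 2 on the glucocorticoid row, which has the lowest median of the 41.

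In the higher direction no gene passed with edgeR. The 12 genes with the smallest p had edgeR adjusted p values of 0.0747 to 0.0834, log2 fold changes of 1.26 to 2.49 and no overlap between the groups. DESeq2 called all 12 higher, and so did edgeR without WT replicate 2 except for Slc40a1 (adjusted p = 0.0539). The latter is no further support, as that mouse lay near the light-treated mice. Several are genes of macrophages and monocytes. Ccr2, the chemokine receptor that brings monocytes into tissue, had an FPKM of 11.03, 11.6 and 12.1 in light-treated and 3.53, 5.42, 3.03 and 2.67 in WT mice. The 3 light-treated mice lay close together, and the log2 fold change was 1.63 (standard error 0.27, edgeR adjusted p = 0.0747). Gpr34, a lysophosphatidylserine receptor of microglia and macrophages, had 12.1, 12.02 and 11.5 against 2.2, 4.3, 2.03 and 3.82 (log2 fold change 1.96). Lair1, an inhibitory receptor that binds collagen, had 19.4, 12.8 and 10.8 against 5.09, 4.1, 3.35 and 3.39 (log2 fold change 1.54).

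C3ar1, the receptor for the complement fragment C3a, had 7.32, 6.75 and 8.25 against 3.15, 3.74, 3.13 and 1.85 (log2 fold change 1.33). Slc40a1, the iron exporter ferroportin, had 10.7, 7.24 and 6.04 against 3.67, 2.87, 3.27 and 2.07 (log2 fold change 1.44). Klhl6, a gene of B cell receptor signalling, had 7.33, 6.97 and 7.64 against 2.93, 3.46, 2.73 and 1.97 (log2 fold change 1.40). For Klhl6 the untreated 5xFAD mice, at 6.68, 5.66 and 6.14, lay above all WT mice and below all light-treated mice. The same held for Ccr2 (5.99, 6.41 and 9.54 in untreated 5xFAD mice), Gpr34, Lair1, C3ar1 and Slc40a1. It did not hold for the other genes with the smallest p in this direction. Tnfsf10, the death ligand TRAIL, had a log2 fold change of 2.04, Clec14a, an endothelial lectin gene, 1.97, Mylip, a ubiquitin ligase gene that lowers the LDL receptor, 1.54, Evi2a 1.48 and Zfp943, a zinc finger gene, 1.26.

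**Figure D4:**
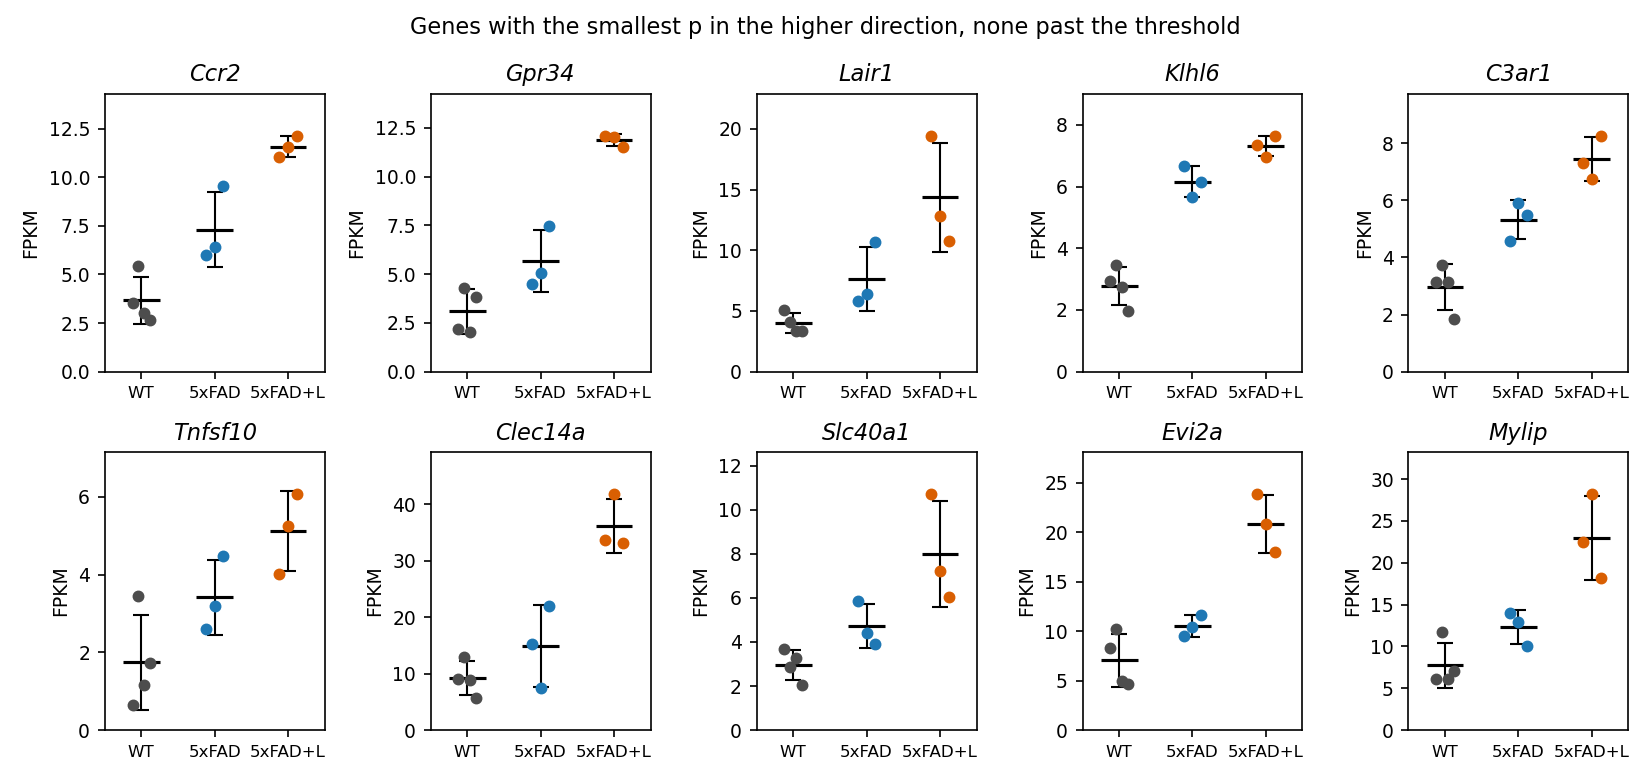
FPKM (y axis) of 10 of the 12 genes with the smallest p in the higher direction in WT, untreated 5xFAD and light-treated 5xFAD meninges, with 1 point per mouse, the mean as a line and the SD as a bar. All light-treated mice lie above all WT mice in each panel, and the untreated mean lies between the other two means.

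Of 16 border-associated macrophage genes 0 passed. An unadjusted p below 0.05 was found for 1 in each direction (8.14% higher and 8.47% lower over all tested genes). These were F13a1 (log2 fold change 0.83) and Cbr2 (−0.76). The median was 0.29 and, without light-treated replicate 1, −0.13. Of 17 genes of plaque-associated microglia and macrophages 2 had an unadjusted p below 0.05 in the higher direction (8.14% of all tested genes), with a median of 0.14. Clec7a, the receptor Dectin-1, had 12.2, 14.3 and 9.43 against 3.03, 5.02, 4.63 and 5.48 (log2 fold change 1.49, edgeR adjusted p = 0.141), a DESeq2 call. Complement genes had a median of 0.27, with 3 of 17 at an unadjusted p below 0.05, all higher (8.14% of all tested genes). Among these were C3ar1 and C1ra, a protease gene of the classical pathway, at 26.5, 34.6 and 20.6 against 22.5, 16.03, 11.5 and 14.6. The C1q genes C1qa, C1qb and C1qc overlapped between the groups.

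Among 15 Toll-like receptor and inflammatory cytokine genes 4 had an unadjusted p below 0.05 in the higher and 2 in the lower direction (8.14% and 8.47% of all tested genes). All of these were without overlap (7.09% and 5.38% of all tested genes). Tlr1, Tlr2 and Tlr4, receptors for bacterial molecules, and Ccl4, a chemokine gene, had log2 fold changes of 1.23, 1.06, 0.77 and 1.28. Cd14, the gene of a co-receptor of Tlr4, and Il6 had −1.32 and −2.10. Il6 was low, at 0.11, 0.53 and 0.76 against 2.97, 0.83, 2.24 and 2.08.

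All 20 tested interferon-stimulated genes had a log2 fold change above 0, with a median of 0.79, and 0 passed with edgeR. An unadjusted p below 0.05 was found for 11 and no overlap for 8, all in the higher direction (8.14% and 7.09% of all tested genes), and DESeq2 called 2, against 0.736% of all tested genes. The largest difference was that of Usp18, a protease that removes ISG15 and dampens the interferon receptor, at 18.3, 16.8 and 13.2 against 6.68, 7.07, 3.86 and 3.29 (log2 fold change 1.61, standard error 0.37, edgeR adjusted p = 0.111). Ifit1, which binds viral RNA, had 25.4, 23.1 and 23.7 against 12.9, 10.01, 6.48 and 6.16 (log2 fold change 1.44, edgeR adjusted p = 0.127). Both were without overlap. Light-treated replicate 1 was the highest mouse for several members, as for Isg15, a ubiquitin-like modifier, at 100.2, 32.7 and 37.8 against 35.4, 34.3, 28.9 and 41.1. The per-mouse median of the list was 0.31 to 1.31 in light-treated and −0.39 to 0.31 in WT mice, so that the lowest light-treated mouse was level with WT replicate 2. In untreated 5xFAD against WT the median log2 fold change was −0.01.

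MHC class I genes, which present peptides to T cells, had a median of 0.26. Of 14, 2 had an unadjusted p below 0.05, both higher (8.14% of all tested genes). B2m, the common light chain, had 2347, 1716 and 2395 against 1488, 1406, 654 and 866 (log2 fold change 0.98, edgeR adjusted p = 0.192). The summed FPKM of the list, 3156 to 3838 against 1401 to 2594, did not overlap either, but B2m was a large part of it. Of the 14 genes, 1 was without overlap in the higher direction (7.09% of all tested genes). The per-mouse medians of the list did overlap, at 0.005 to 0.55 in light-treated and −0.57 to 0.34 in WT mice. MHC class II genes had a median of 0.11, and T and natural killer cell genes 0.20 with 0 of 10 at an unadjusted p below 0.05 in the higher direction (8.14% of all tested genes).

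Of 15 B and plasma cell genes 14 had a log2 fold change above 0, 7 had an unadjusted p below 0.05 and 7 had no overlap, all higher (8.14% and 7.09% of all tested genes), with a median of 0.71. None passed with edgeR, and DESeq2 called 4, against 0.736% of all tested genes in this direction. Ms4a1, which encodes CD20 of the B cell surface, had 4.62, 5.03 and 5.12 against 2.17, 1.58, 0.73 and 0.65 (log2 fold change 1.92, standard error 0.40, edgeR adjusted p = 0.0944). Cd79b, a chain of the B cell receptor, had 28.4, 17.7 and 15.2 against 11.3, 10.2, 8.94 and 7.17 (log2 fold change 1.11). Jchain, which joins secreted antibodies, had 279, 612 and 173 against 78.5, 164, 170.0 and 139 (log2 fold change 1.32).

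Iglc3, a lambda light chain constant gene outside the list and the gene with the smallest p in the higher direction, had 34.4, 53.1 and 51.9 against 8.04, 12.3, 3.55 and 8.5 (log2 fold change 2.49, standard error 0.38, edgeR adjusted p = 0.0747). The listed Iglc2 had 86.8, 141 and 30.7 against 13.2, 25.2, 19.3 and 28.8. These constant genes are close copies, so their counts may share reads and are uncertain one by one. The heavy chain gene Ighm overlapped between the groups, at 130.0, 744 and 77.7 against 78.01, 218, 113 and 426.

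**Figure D5:**
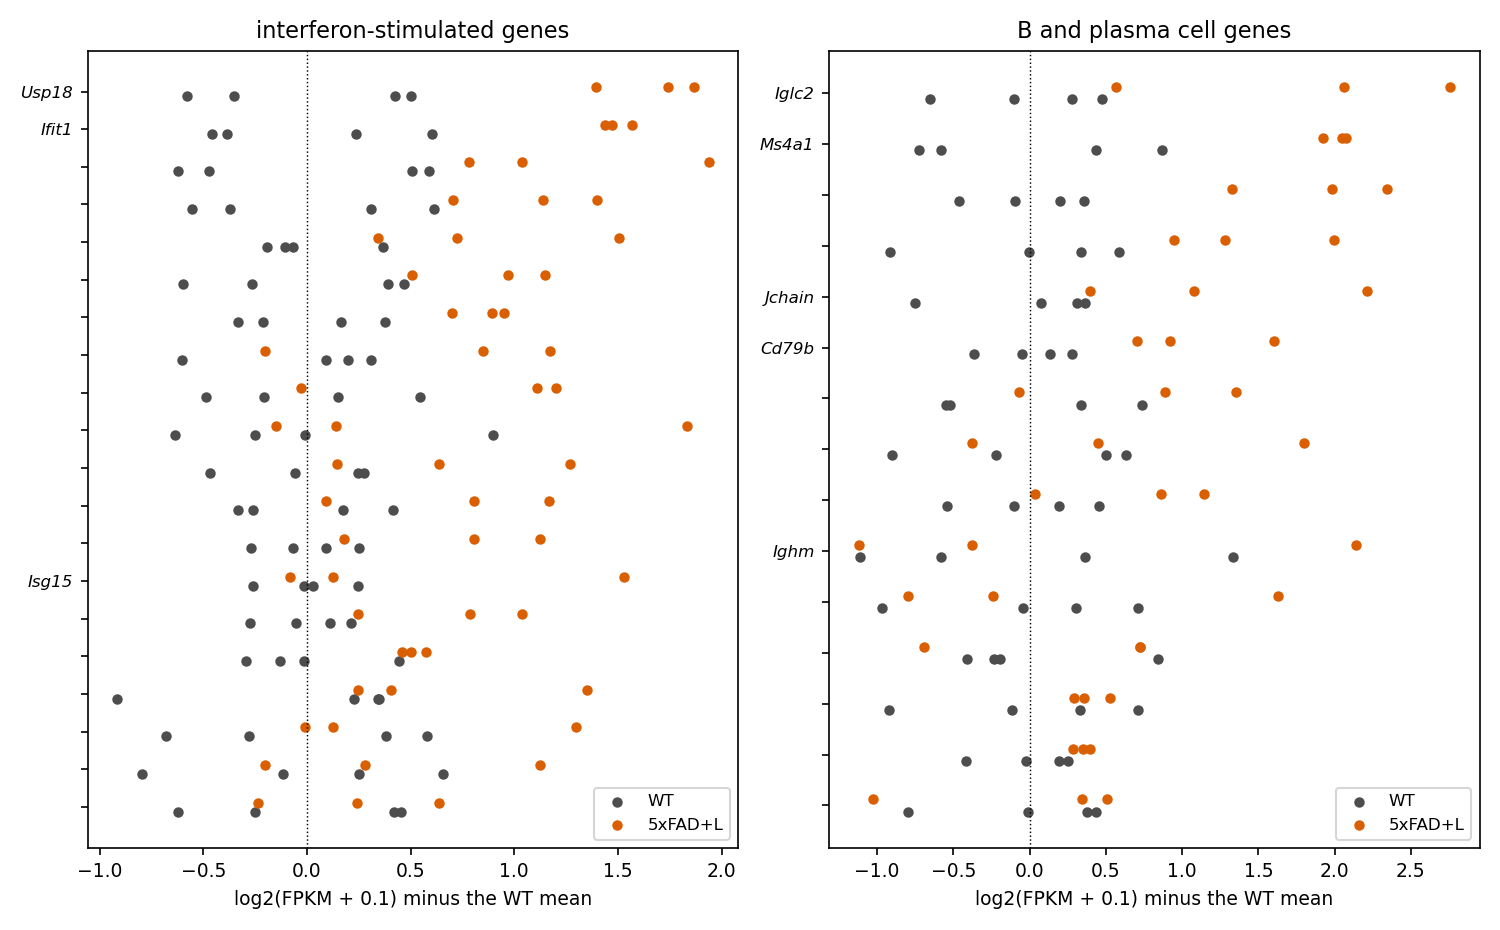
Difference of log2(FPKM + 0.1) from the WT mean of the same gene for the 20 interferon-stimulated and 15 B and plasma cell genes tested, with 1 row per gene, labelled where the text names it, and 1 point per WT (grey) and light-treated 5xFAD (orange) mouse. Light-treated mice lie above all WT mice for 8 interferon-stimulated and 7 B and plasma cell genes, and overlap with WT in the others.

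The study was about meningeal lymphatic vessels. Of 8 lymphatic endothelial genes tested 7 had a log2 fold change above 0, and the median was 0.23. An unadjusted p below 0.05 was found for 1, in the higher direction (8.14% of all tested genes). It was Foxc2, a transcription factor gene of lymphatic valves, at 18.02, 19.3 and 14.4 against 8.61, 15.9, 8.04 and 9.19 (log2 fold change 0.71, edgeR adjusted p = 0.275). The 14 VEGF and angiopoietin genes had a median of 0.40. Of these, 4 had an unadjusted p below 0.05, all higher and without overlap (8.14% and 7.09% of all tested genes). These were Vegfc, the growth factor of lymphatic vessels, the angiopoietins Angpt1 and Angpt2, and their receptor gene Tek. Vegfc had 5.53, 6.19 and 4.53 against 3.37, 2.24, 2.36 and 2.32 (log2 fold change 0.96, standard error 0.44, edgeR adjusted p = 0.296), and 2.44, 1.67 and 6.72 in the untreated 5xFAD mice. Angpt2 had 15.7, 15.7 and 17.8 against 8.28, 12.9, 8.7 and 6.71 (log2 fold change 0.85, edgeR adjusted p = 0.143). The per-mouse medians of the list were 0.24 to 0.48 in light-treated and −0.07 to 0.08 in WT mice, and the median of untreated 5xFAD against WT was 0.40. The list median was 0.29 without light-treated replicate 1, 0.30 without WT replicate 1 and 0.48 with GC content and length modelled.

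Nck1, an adaptor gene downstream of growth factor receptors, had 41.5, 42.1 and 47.6 against 20.6, 34.9, 18.1 and 9.98, and Nckap1l, of the actin regulator complex of blood cells, had 5.78, 6.09 and 4.46 against 4.41, 4.19, 3.37 and 1.93. Neither overlapped between the groups, with log2 fold changes of 0.85 and 0.64 and edgeR adjusted p values of 0.157 and 0.258. With GC content and length modelled Nck1 and Nckap1l had 0.55 and 0.70. Cdc42 and Calm2 had 0.38 and 0.25 (edgeR adjusted p = 0.449 and 0.656), and −0.01 and −0.16 with GC content and length modelled. Blood endothelial genes had a median of 0.30, or 0.48 with GC content and length modelled, and pericyte and smooth muscle genes one of 0.06. For tight and adherens junction genes the median was 0.07. Of 19, 2 had an unadjusted p below 0.05, both higher (8.14% of all tested genes). One was Ocln, the tight junction protein occludin, at 5.51, 12.03 and 12.7 against 5.37, 5.71, 3.23 and 2.4 (log2 fold change 1.36, edgeR adjusted p = 0.105), a DESeq2 call. Ocln overlapped between the groups. Of the 19 genes, 2 in the higher and 2 in the lower direction had no overlap (7.09% and 5.38% of all tested genes). The median of this list was −0.004 without light-treated replicate 2 and 0.15 without WT replicate 1. The protocadherin genes Pcdhgb5, Pcdhgb6, Pcdhgb7 and Pcdhga8 had log2 fold changes of −0.27, 0.60, 0.62 and 0.65, all overlapping, and they share exons in one cluster, so that reads may be split between them.

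Fibroblast and arachnoid barrier genes had a median of 0.26 and collagen genes one of −0.06, and none passed. With GC content and length modelled the medians were 0.17 and 0.32, and 0.06 and 0.18 with the replicate block as well. The summed FPKM of the fibroblast list was nevertheless lower in each light-treated mouse, 18314 to 28537 against 28980 to 34702. Its most abundant gene, Ptgds, which encodes a prostaglandin D synthase of the arachnoid, had 12867, 13649.5 and 7541 against 14404, 17567, 20262 and 18616 without overlap (log2 fold change −0.65, edgeR adjusted p = 0.3098).

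Genes of the mitochondrial respiratory chain had medians near that of all genes, −0.02 for 37 complex I genes, −0.03 for 20 cytochrome c oxidase genes and −0.03 for 15 ATP synthase genes. The per-mouse median of the complex I genes was −0.34 to 0.23 in light-treated and −0.33 to 0.26 in WT mice. Cox7c, Cox17 and Atp5pb had log2 fold changes of 0.24, 0.26 and 0.23 with standard errors of 0.31, 0.30 and 0.21. Mfn2, Immt and Iscu, genes of mitochondrial fusion, cristae and iron-sulphur clusters, had 0.05, 0.24 and 0.12 with standard errors of 0.26, 0.20 and 0.24. With GC content and length modelled, Cox7c, Atp5pb and Immt lay below 0, at −0.32, −0.26 and −0.15. Cox15, a heme A synthase gene, had the largest difference of the 3 lists, at 2.48, 4.05 and 5.27 against 2.26, 2.13, 1.72 and 1.08 without overlap (log2 fold change 1.12, edgeR adjusted p = 0.148). The 13 genes encoded in mitochondrial DNA had a median of 0.26, which was −0.31 with GC content and length modelled. Cytosolic ribosomal protein genes had a median of −0.06.

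DNA replication and mismatch repair genes had a median of 0.40, and 4 of 22 had an unadjusted p below 0.05, all higher (8.14% of all tested genes). Their per-mouse medians, 0.34 to 0.42 in light-treated and −0.23 to 0.26 in WT mice, did not overlap. Mcm7, a subunit of the replicative helicase, had 13.5, 14.7 and 12.3 against 11.6, 7.5, 6.93 and 7.37 (log2 fold change 0.76, edgeR adjusted p = 0.187). Mitotic genes had a median of 0.74, and 0.09 without light-treated replicate 1.

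Genes of blood and marrow cells differed between single mice. The erythroid and neutrophil lists had medians of 1.20 and 1.15, with summed FPKM of 6592 to 48716 and 692 to 7814 in light-treated and 5157 to 17690 and 553 to 1662 in WT mice. Light-treated replicate 1 had the highest per-mouse median in both, and without it the medians were 0.09 and −0.74. Hbb-bs, a beta globin gene, had 17624, 2509 and 6776 in the light-treated mice against 6618, 3032, 1572 and 2684. Bglap, the osteocalcin gene of bone, was highest in light-treated replicate 4, at 192, 85.5 and 2195 against 122, 87.5, 548 and 260.2, and its log2 fold change of 1.79 was −0.86 without that mouse. Skeletal muscle genes had a median of 0.67. The part of blood, marrow and bone in the differences between the groups was not tested.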

How the data were processed

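Meninges were taken from 4 WT, 3 5xFAD and 3 5xFAD+L mice. Per the study's methods, Smart-seq2 libraries, which do not keep strand, were filtered with fastp and quantified with RSEM, whereas the submitters' processing notes name Trimmomatic, HISAT2, StringTie, DESeq2 and mm10. The authors deposited estimated counts, that is expected counts per gene without normalization, and FPKM values. Symbols are those of the deposited tables, and positions follow GENCODE vM21 (GRCm38).

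After rounding, the counts were fitted with edgeR 4.0.16 (R 4.3.3, TMM normalization, quasi-likelihood test) in one model of the 10 meninges samples, with p values adjusted over 13857 genes. Alternatives used DESeq2 1.42.0, limma 3.58.1 on log2(FPKM + 1) and log2(FPKM + 0.1), other normalizations, filters and samples, and offsets for GC content and length, the last chosen after seeing the data. The edgeR and DESeq2 steps were tested on simulated data. Replicate pairs of the WT and 5xFAD+L groups differed beyond sampling noise (9 pairs, chi-square per degree of freedom 28.3 to 84.6), and the biological coefficient of variation was 0.34.

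The comparison, the 41 gene lists and the tests were chosen with earlier results of these data known. The text names genes past both thresholds without overlap between the groups, then those with the smallest p up to 12 in each direction (provisional symbols left out), Thy1 and App, genes the study names, and from each list the members past the thresholds, or else the 3 with the largest change and the most abundant. The other genes were named after their values were seen. Some genes that these rules name are not reported here.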

Additional observations from a re-analysis of the deposited data

Results flagged for a closer look

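In the WT group of 4 mice, 136 values were screened for a mouse far from the others (gap to the nearest mouse over the whole range above Dixon's 95% critical value), and 8 were flagged. Chance flags about 1 in 20 such groups. Foxc2 had an FPKM of 15.86 in WT replicate 2 against 8.04 to 9.19 in the other WT mice. In WT replicate 1, Mcm7 had 11.56 against 6.93 to 7.5, Vegfc 3.37 against 2.24 to 2.36, and Ttr 15349 (1.535e+04) against 38074 to 41237. The per-mouse median of the choroid plexus list was −0.5369 in WT replicate 1 against 0.14 to 0.25, and that of the tight and adherens junction list 0.1878 against 0.01 to 0.03. In WT replicate 3 the per-mouse median was −0.4506 for border-associated macrophage genes, against 0.18 to 0.21, and −0.3865 for Toll-like receptor and inflammatory cytokine genes, against 0.08 to 0.16.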

How the results depend on the processing

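The 2 genes that fell were called under DESeq2 size factors in edgeR, upper-quartile normalization, a mean FPKM of at least 5, the 7 samples alone, no fold threshold, limma with either pseudocount (3 genes) and GC and length offsets (3 genes). Without the FPKM filter 14 genes passed, 7 in each direction. DESeq2 called 372 genes on 10 samples and 346 on 7. Leaving out 1 mouse gave 1 to 159 genes, with 159 without WT replicate 2, 1 without light-treated replicate 2 and 1 without light-treated replicate 4. The cause of these differences was not tested. For light-treated against untreated 5xFAD, DESeq2 called 72 genes and leaving out 1 mouse gave 0 to 2. For untreated 5xFAD against WT the count was 0 under all alternatives run (425 to 759 genes at an unadjusted edgeR p below 0.05 with 1 mouse left out).

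Replicate numbers are shared between the groups, but deviations of same-numbered mice correlated at −0.29, −0.18 and 0.01, and no mouse correlated best with its own number. With the replicate number as a block 0 genes passed in the main comparison (1333 at an unadjusted edgeR p below 0.05), also with GC and length offsets (0 genes, 953), and 0 in light-treated against untreated 5xFAD. Zbtb16 then had a log2 fold change of −2.94 (−2.71 with offsets) and Fkbp5 −2.45 (−2.41).

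Of 1783 values for 95 genes named in the text, 40 had the other sign, none in a gene past the thresholds. With GC and length offsets these were Atp5pb (−0.26), C1qa (0.099), C1qb (0.13), Calm2 (−0.16), Cdc42 (−0.0089), Cox7c (−0.32), Immt (−0.15) and Ttr (−0.18). With the replicate block as well they were Atp5pb (−0.30), Calm2 (−0.19), Cdc42 (−0.079), Cox17 (−0.090), Cox7c (−0.42), Immt (−0.19) and Thy1 (0.022). With the replicate block alone they were C1qc (−0.083) and Snap25 (0.0025). With 1 mouse left out in turn the log2 fold change crossed 0 for Bglap (−0.86 to 2.43), C1qa (−0.58 to 0.070), C1qb (−0.44 to 0.11), C1qc (−0.20 to 0.28), Dusp1 (−0.69 to 0.028), Ighm (−0.91 to 1.12), Iscu (−0.012 to 0.28), Isg15 (−0.035 to 1.05), Mfn2 (−0.13 to 0.30), Pcdhgb5 (−0.80 to 0.18), Snap25 (−0.42 to 0.23), Thy1 (−0.28 to 0.058) and Ttr (−0.19 to 0.33).

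Of 779 list medians 19 moved by more than the spread between mice. The median of myelin and oligodendrocyte genes was −0.28 with a mean FPKM of at least 5 and −0.44 without WT replicate 1, that of collagen genes 0.32 and of blood endothelial genes 0.48 with GC and length offsets, and that of antioxidant genes −0.25 without light-treated replicate 1. The cause was not tested. With 3 against 4 mice of these depths, the smaller change that passed was that of Fkbp5 (log2 fold change −2.40), and Nr4a3 at −3.69, Gng13 at −2.61 and Iglc3 at 2.49 did not pass.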
